A study of Mus musculus with 8 samples.

Results

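The genes described here encode enzymes of phase I metabolism other than cytochromes P450, together with the reductase that serves the P450s. They are the flavin-containing monooxygenases Fmo1 and Fmo5, the epoxide hydrolases Ephx1 and Ephx2, the P450 reductase Por, the aldehyde oxidases Aox1 and Aox3 and the carbonyl reductase Cbr1. The 8 genes were listed by name for their function, found by symbol among the 55401 genes of each deposited table, and read from a comparison of all genes. The list was made with earlier results of these data known. All 8 of 8 passed the filter on low counts, which left 13908 genes, and the lowest value of any of them in any library was 384 expected counts, for Aox1. RNA was sequenced from liver of C57BL/6J mice given a control hairpin RNA (shNC) or a hairpin against Tbl1xr1 (shTbl1xr1), with 4 libraries in each group. All animals of both groups had received an adeno-associated virus directed at hepatocytes and, 4 weeks later, a partial hepatectomy, the removal of part of the organ, and tissue was collected at day 2. The other cells of the liver were not the virus's target but are present in the bulk RNA. The sources used here give neither age, sex nor the hairpin sequences, and the labels do not say whether the numbered replicates are separate animals. P-values therefore measure the spread between these libraries, which may be technical. The comparison asks how transcripts of the regenerating liver differ when Tbl1xr1, a subunit of the NCoR and SMRT corepressor complexes, is knocked down.

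Phase I enzymes add or unmask a reactive group on drugs, toxins and the body's own lipids, which conjugating enzymes then modify for excretion. Flavin-containing monooxygenases oxidise nitrogen and sulfur atoms with NADPH and need no partner protein, whereas microsomal P450s depend on electrons that POR takes from NADPH. Epoxide hydrolases open the strained epoxide rings that P450s make, aldehyde oxidases use a molybdenum cofactor to oxidise aldehydes and nitrogen heterocycles, and carbonyl reductases turn ketones and aldehydes into alcohols. Hepatocytes are a main site of all these reactions, and their zonation, nuclear receptors and regenerative state are known to alter the genes' expression.

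The short stretches below lie just upstream of annotated transcription starts and are shown for 3 genes. Aox1 and Aox3 are tandem neighbours with unlike levels, and Por is 1 of the 2 genes whose groups did not overlap. They were copied from RefSeq on GRCm38.p6, the assembly that mm10 denotes, on the plus strand, 5′ to 3′, and end where an annotated exon begins. Capitals mark GGGCGG, the GC box bound by Sp1-type factors, and GCGTG, the core bound by the aryl hydrocarbon receptor and its partner, on either strand. The Aox1 stretch is 212 bases at chr1:58029719-58029930, the Aox3 stretch is 244 bases at chr1:58112886-58113129 and the Por stretch is 141 bases at chr5:135688895-135689035.
Aox1: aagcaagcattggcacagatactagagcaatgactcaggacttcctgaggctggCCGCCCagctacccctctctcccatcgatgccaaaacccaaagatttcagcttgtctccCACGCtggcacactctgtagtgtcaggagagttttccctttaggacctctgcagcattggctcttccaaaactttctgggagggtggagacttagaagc
Aox3: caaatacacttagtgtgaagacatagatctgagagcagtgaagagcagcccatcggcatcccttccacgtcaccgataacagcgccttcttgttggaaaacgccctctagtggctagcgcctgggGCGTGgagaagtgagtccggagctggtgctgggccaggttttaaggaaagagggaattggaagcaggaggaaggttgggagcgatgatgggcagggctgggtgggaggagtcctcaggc
Por: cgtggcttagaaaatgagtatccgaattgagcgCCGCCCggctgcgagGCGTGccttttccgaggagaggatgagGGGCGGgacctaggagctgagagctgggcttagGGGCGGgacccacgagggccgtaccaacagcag

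The whole windows of 250 bases before each RefSeq start could be read for 6 of the 8 genes, Fmo5, Ephx1, Por, Aox1, Aox3 and Cbr1. The Por window was the richest in G and C, at 65.6%, with 21 CpG pairs and 4 matches to GGGCGG, against a median of 52.4% and 6 CpG pairs over 32851 promoters. The Aox3 and Fmo5 windows had 56.4% and 56.0%, the Aox1 and Ephx1 windows 52.8% and 51.2%, and the Cbr1 window 41.6%. GGGCGG also stood in the windows of Aox1 (2 matches) and Fmo5 (1 match) and in 32.7% of all windows. GCGTG stood in the windows of Por (3 matches), Cbr1 (2), Aox1 (1) and Aox3 (1) and in 28.2% of all. TATAAA, the letters of the TATA box, had 1 match each in the windows of Ephx1 and Fmo5 and was present in 12.4% of all. Of the Fmo5 window, 215 of 250 bases lie in annotated exons, its TATAAA match among them. The windows of Ephx1, Por and Cbr1 lie inside the annotated spans of their genes. The letters TGACNNNGC of the antioxidant response element (in 10.2% of all windows), AGGTCA, a unit bound by nuclear receptors (14.0%), and CACGTG of the E-box (6.02%) were in none of the 6. GCGTG overlapped CACGTG in no window, since the latter was absent, and these matches are letters in a window, not measured sites.

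The hairpin's target was lower in every shTbl1xr1 library, at 7.24%, 6.31%, 28.1% and 48.5% of the shNC mean in shTbl1xr1 1 to 4. The log2 fold change of Tbl1xr1 was -2.07 (SE 0.54), which missed the threshold over all genes (adjusted p = 0.290, edgeR's quasi-likelihood test). The 4 shNC libraries held 25811763 to 27537235 expected counts, and shTbl1xr1 3 and 4 held 26976205 and 36720879, but shTbl1xr1 1 and 2, called the shallow pair below, held 10895508 and 10728583. The shallow pair also had more mitochondrial reads (11.3% and 14.8%, against 4.52% to 7.34% in the other 6), stood apart on the first principal component (86.0 and 86.4, against -39.7 to -9.29), and needed TMM scaling factors of 0.73 and 0.68, against 1.08 to 1.16. Markers of hepatocytes were abundant in every library (9 markers summing to 78570 to 97189 CPM in shNC and 84357 to 121287 in shTbl1xr1). Their sums were 111261 and 121287 CPM in the shallow pair and 84357 and 99740 CPM in shTbl1xr1 3 and 4. In both shallow libraries 5 of the 9 lay above the whole shNC range and 1 below it. All 8 macrophage markers, 7 of 8 stellate cell markers and all 8 endothelial markers lay below the whole shNC range in both shallow libraries. Summed macrophage markers, for instance, were at 190 and 205 CPM there, at 490.2 and 549 CPM in shTbl1xr1 3 and 4 and at 434 to 713 CPM in shNC. Stellate cell markers summed to 236 to 434 CPM in shNC and 105 to 494 CPM in shTbl1xr1, and endothelial markers to 226 to 257 and 131 to 255 CPM. The kidney and lung markers Umod, Sftpc and Scgb1a1 were at 0 in all 8 libraries. The part of these differences in the results below was not tested. The 8 genes, the medians of the larger lists and some list genes are therefore given for the shallow and the deeper shTbl1xr1 libraries. The list genes for which the pairs differ most are not all among them. Library shTbl1xr1 3, of the deeper pair, had the highest summed markers of cholangiocytes (237 CPM, against 31.8 to 118 in shNC and 37.2 to 59.9 in the other shTbl1xr1 libraries), of neutrophils (17.3 CPM, against 3.81 to 9.57 in shNC) and of stellate cells (494 CPM).

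Per length, Fmo5, Ephx2 and Ephx1 were the most abundant of the 8 transcripts in shNC liver, with deposited TPM of 428 ± 58.9, 382 ± 116 and 342 ± 51.0 (SD, n = 4). Their ranges over the 4 libraries overlapped, so these 3 had no order beyond their spread. Por followed at 157 ± 36.2 TPM and overlapped neither neighbour. Cbr1 (90.1 ± 22.7 TPM), Aox3 (81.5 ± 8.06) and Fmo1 (78.3 ± 11.6) formed a second overlapping group. Aox1 was lowest at 17.7 ± 6.60 TPM, and Fmo1, the next above it, was 4.43 times higher with no overlap. Among the genes tested these levels ran from percentile 70.1 for Aox1 to 97.7 for Fmo5, and CPM per kilobase and the deposited FPKM gave the same order.

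None of the 8 genes passed the edgeR threshold in shTbl1xr1 against shNC, beside 0.0503% of all genes tested (7 of 13908; 0.0431% higher and 0.00719% lower). Por, Fmo5 and Ephx1 had higher mean levels in shTbl1xr1, with unadjusted p under 0.05, so 3 of 8 against 11.6% of all genes in either direction and 7.9% higher. For Fmo5 and Por every shTbl1xr1 library exceeded every shNC library, 2 of 8 beside 3.88% of all genes, and none of the 8 showed the reverse (3.37% of all, and 7.25% in either direction). Fmo1, Aox1, Aox3 and Cbr1 had mean differences near 0, and Ephx2 had a lower mean. DESeq2 called 2 of the 8, Fmo5 and Por, where it called 2.12% of all genes (1.78% higher and 0.338% lower), and limma-voom called none (0.23% of all). The median log2 fold change of the 8 was 0.04, beside 0.01 over all genes tested. Since the 8 were listed with earlier results of these data known, these counts are no independent evidence of direction. In bulk liver, fewer cells of a type and less RNA per cell cannot be told apart.

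**Figure D1:**
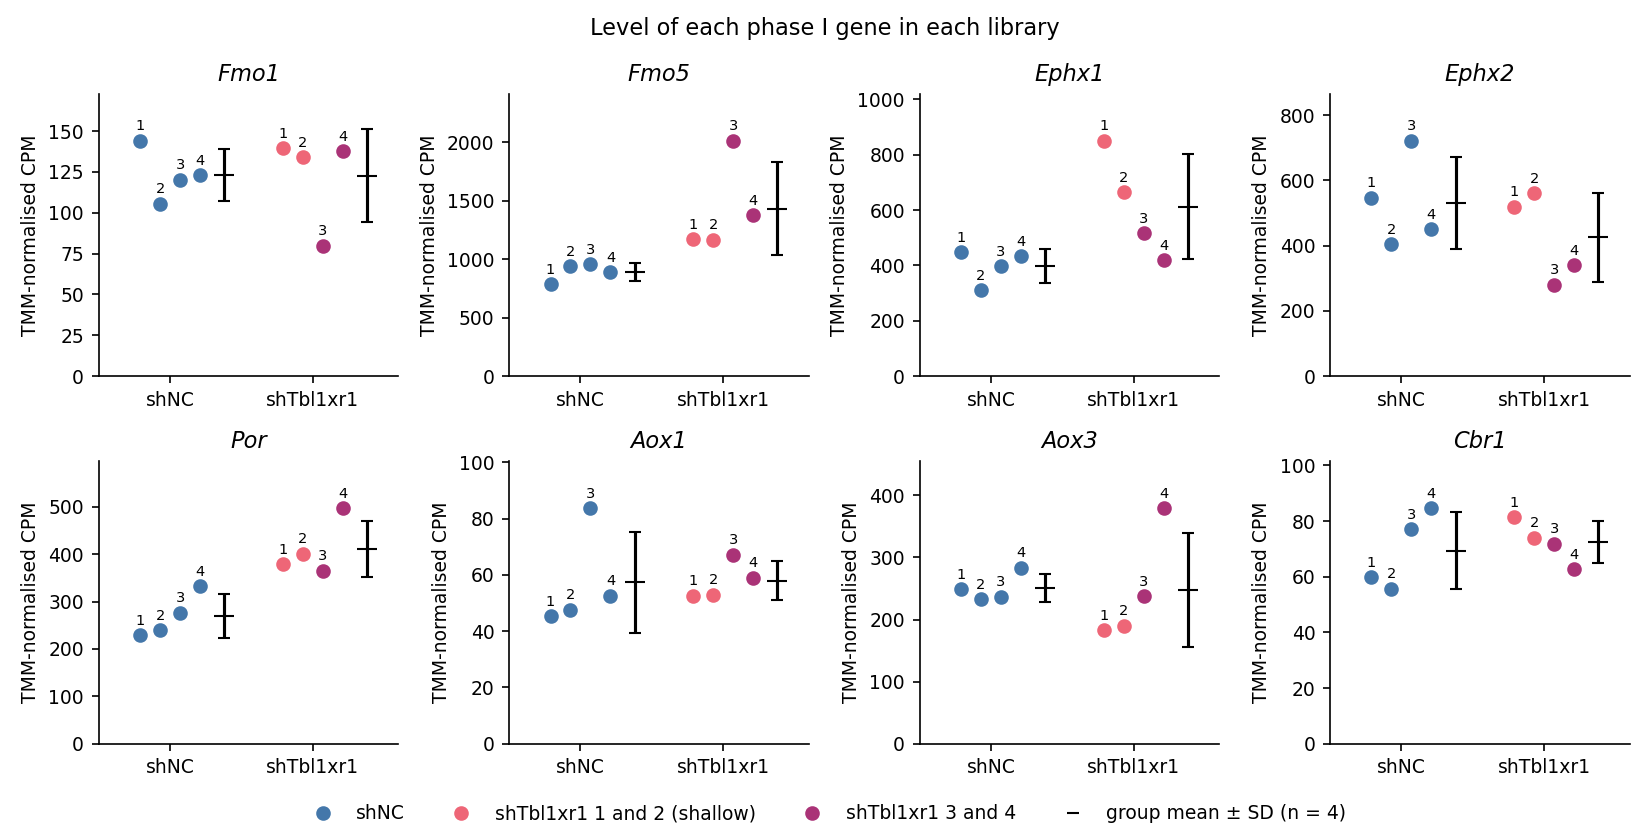
Level of each of the 8 phase I genes in TMM-normalised CPM (vertical axes, linear and starting at 0), with 1 point per library and the group mean ± SD for shNC and shTbl1xr1 (n = 4 each). The shTbl1xr1 points of Fmo5 and Por all lie above the shNC points on this scale, though not in deposited TPM, whereas those of the other 6 genes overlap them.

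Fmo5 (ENSMUSG00000028088.14, chr3:97628804-97655282 on mm10, plus strand) encodes an unusual flavin monooxygenase that inserts oxygen next to ketones, as Baeyer-Villiger enzymes do, rather than oxidising nitrogen or sulfur. Its TMM-normalised levels were 786, 938, 955 and 887 CPM (counts scaled to the TMM-adjusted library size) in shNC 1 to 4 and 1172, 1167, 2013 and 1377 CPM in shTbl1xr1 1 to 4. All 4 shTbl1xr1 libraries were above every shNC library, and shTbl1xr1 3, the library highest in cholangiocyte, neutrophil and stellate cell markers, was the highest by a wide margin. The part of those markers in the value was not tested, and without shTbl1xr1 3 the log2 fold change was 0.47. The means were 891 ± 76.0 and 1432 ± 399 CPM (SD, n = 4 each), with a log2 fold change of 0.68 (standard error 0.24, edgeR adjusted p = 0.382). DESeq2 placed it just inside its threshold (log2 fold change 0.70, adjusted p = 0.0495). The shTbl1xr1 group was more scattered than shNC, and the log2 difference from the shNC mean was 0.40 in the shallow pair and 0.91 in the deeper pair.

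Fmo1 (ENSMUSG00000040181.14, chr1:162829561-162866610, minus strand) encodes a broad monooxygenase of nitrogen- and sulfur-containing drugs. It had 144, 105 and 120 CPM in shNC 1 to 3 and 123 CPM in shNC 4, and 139, 134, 79.9 and 138 CPM in shTbl1xr1 1 to 4. The groups overlapped, and shTbl1xr1 3, the library in which Fmo5 was highest, was the lowest for Fmo1. The means were the same within their spread, 123 ± 15.9 and 123 ± 28.6 CPM, with a log2 fold change of -0.01 (standard error 0.21, edgeR adjusted p = 0.990), whose sign turned with the shallow pair alone (0.15). The difference from the shNC mean was 0.16 in the shallow pair and -0.22 in the deeper pair. Within each library, the ratio of Fmo5 to Fmo1 in TPM was 3.67, 7.19, 5.95 and 5.67 in shNC and 3.90, 3.43, 19.5 and 7.65 in shTbl1xr1. The ratios overlapped between groups, and 1 library, shTbl1xr1 3, held the extreme value.

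Fmo1 lies in a cluster of flavin monooxygenase genes on chromosome 1, on the minus strand, with Fmo4 on one side and Fmo2 and Fmo6 on the other. These neighbours were much lower in these livers. Mean TPM in shNC was 78.3 for Fmo1, 3.88 for Fmo4 and 1.48 for Fmo2. Fmo6 had 1 expected count over all 8 libraries and Fmo9, farther along the chromosome, had 0, and neither passed the filter on low counts. Fmo4, at 4.48 ± 1.42 CPM in controls and 6.59 ± 1.73 CPM after knockdown, had a log2 fold change of 0.56 (standard error 0.28, edgeR adjusted p = 0.443), which turned to -0.16 in deposited TPM. Fmo2 had a log2 fold change of 0.00 to 2 decimals (-0.00157, SE 0.50), with overlapping groups.

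Ephx1 (ENSMUSG00000038776.13, chr1:180976210-181020904, minus strand) encodes the microsomal epoxide hydrolase, which detoxifies epoxides of arenes and drugs in the endoplasmic reticulum. It had 447, 310, 397 and 434 CPM in shNC 1 to 4 and 851, 665, 516 and 419 CPM in shTbl1xr1 1 to 4. The first 3 shTbl1xr1 libraries were above every shNC library, and shTbl1xr1 4 lay within the shNC range. The means were 397 ± 61.8 and 612 ± 188 CPM, a log2 fold change of 0.63 (standard error 0.25, edgeR adjusted p = 0.412). The difference from the shNC mean was 0.94 in the shallow pair and 0.24 in the deeper pair on the log2 scale. The gene overlaps an annotated pseudogene, Gm36961, on the same strand, and reads of the 2 could be shared in the counting. The expected counts of Ephx1 were whole numbers in all 8 libraries, and such sharing was not tested.

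Ephx2 (ENSMUSG00000022040.8, chr14:66084374-66124500, minus strand) encodes the soluble epoxide hydrolase, which converts epoxides of fatty acids to diols. It had 547, 405, 722 and 451 CPM in shNC 1 to 4 and 519, 561, 280.2 and 340 CPM in shTbl1xr1 1 to 4. The shallow pair lay within the shNC range, and shTbl1xr1 3 and 4 were below every shNC library. The means were 531 ± 140 and 425 ± 136 CPM, with a log2 fold change of -0.32 (standard error 0.29, edgeR adjusted p = 0.626). It was -0.14 without shNC 3, -0.17 without shTbl1xr1 3, -0.49 without shTbl1xr1 2 and -0.06 by limma-voom. The difference from the shNC mean was 0.06 in the shallow pair and -0.75 in the deeper pair, and the sign of the fold change turned with the shallow pair alone (0.02). In deposited TPM, Ephx2 was 355, 290, 552 and 330 in shNC and 184, 176, 209 and 252 in shTbl1xr1, so that on that scale the groups did not overlap (log2 fold change of -0.86, adjusted p = 0.408, limma). Lower values were common on that scale, where the median log2 fold change was -0.34. Of 13908 genes, 1417 were lower and 137 higher at an unadjusted p under 0.05 by limma. The share of all genes without overlap in TPM was not computed.

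The 2 hydrolases had fold changes of opposite sign, and their ratio within a library does not depend on how libraries are scaled against each other. Ephx1 to Ephx2 in TPM was 0.98, 0.93, 0.67 and 1.16 in shNC 1 to 4 and 1.96, 1.41, 2.22 and 1.51 in shTbl1xr1 1 to 4. Every shTbl1xr1 library was above every shNC library (means 0.934 ± 0.201 and 1.77 ± 0.381). This ratio was chosen after the values had been seen, with 2 others, and is a description without a test. On the TMM scale the shallow pair had the higher Ephx1 values and the deeper pair the lower Ephx2 values. In TPM, Ephx2 was below the shNC range in all 4 libraries, and Ephx1 was at 360, 248, 464 and 379 beside 269 to 381 in shNC. The median gene was lower on that scale as well, at a log2 fold change of -0.34. Of the other hydrolases of this family, Ephx3 and Ephx4 were at most 0.38 and 0.17 CPM in any library and were not tested. Lta4h, the leukotriene A4 hydrolase, had 30.7 ± 1.71 and 36.4 ± 3.34 CPM (log2 fold change 0.24, standard error 0.13, edgeR adjusted p = 0.471), with groups that did not overlap, but a fold change of -0.07 when libraries were scaled by size alone.

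Por (ENSMUSG00000005514.14, chr5:135670033-135735326, plus strand) encodes the flavoprotein that hands electrons to all microsomal P450s, and to heme oxygenase and squalene monooxygenase. It had 229, 239, 276 and 332 CPM in shNC 1 to 4 and 379, 401, 365 and 497 CPM in shTbl1xr1 1 to 4. All 4 shTbl1xr1 libraries were above every shNC library, with the narrowest gap between shNC 4 and shTbl1xr1 3. The means were 269 ± 46.6 and 411 ± 59.6 CPM, and the log2 fold change was 0.61 (standard error 0.20, edgeR adjusted p = 0.345; adjusted p = 0.0305, DESeq2). Of the 8 genes it had the smallest p, and its difference from the shNC mean was alike in the shallow pair (0.55) and the deeper pair (0.68). Por overlaps a long noncoding RNA gene, Gm43091, and a processed pseudogene, Gm16061, both on the opposite strand. No source used here gives the strand setting of the counting, so reads of these genes may not be told apart. This was not tested, and the expected counts of Por were whole numbers in all 8 libraries.

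Aox1 (ENSMUSG00000063558.4, chr1:58029931-58106413, plus strand) encodes an aldehyde oxidase, a molybdenum enzyme that also clears many nitrogen-containing drugs. It had 45.4, 47.6, 83.8 and 52.7 CPM in shNC 1 to 4 and 52.6, 53.0, 67.2 and 59.0 CPM in shTbl1xr1 1 to 4. The groups overlapped entirely, with shNC 3 highest. The means were 57.3 ± 17.9 and 58.0 ± 6.84 CPM, a log2 fold change of 0.02 (standard error 0.21, edgeR adjusted p = 0.978), which changed sign under scaling by library size alone (-0.26). The shallow pair differed from the shNC mean by -0.07 and the deeper pair by 0.18.

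Aox3 (ENSMUSG00000064294.12, chr1:58113130-58200698, plus strand) begins 6716 bases after the end of Aox1 and encodes the paralog known as a main aldehyde oxidase of mouse liver. Its levels were 249, 233, 236 and 283 CPM in shNC 1 to 4 and 182, 190, 238 and 380 CPM in shTbl1xr1 1 to 4. The shallow pair was below every shNC library, shTbl1xr1 3 lay within the shNC range and shTbl1xr1 4 was above all of it. The means, 251 ± 22.9 and 247 ± 91.4 CPM, thus hid opposite deviations, and the log2 fold change was -0.02 (standard error 0.25, edgeR adjusted p = 0.980). The difference from the shNC mean was -0.42 in the shallow pair and 0.27 in the deeper pair. Aox3 overlaps a small nucleolar RNA gene, Gm24548, on the opposite strand.

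The aldehyde oxidase cluster goes on with Aox4 and Aox2, which had 2 and 28 expected counts over all 8 libraries. Mean TPM in shNC along the chromosome was 17.7 for Aox1, 81.5 for Aox3, 0.005 for Aox4 and 0.02 for Aox2, so only the first 2 genes of the row were measurably expressed here. The ratio of Aox3 to Aox1 in TPM was 5.93, 5.31, 3.01 and 5.62 in shNC and 3.45, 3.52, 3.66 and 6.85 in shTbl1xr1, with overlapping groups. Aox3 exceeded Aox1 in all 8 libraries.

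Cbr1 (ENSMUSG00000051483.9, chr16:93605853-93610505, plus strand) encodes a cytosolic carbonyl reductase of quinones, prostaglandins and anthracycline drugs. It had 59.8, 55.8, 77.1 and 84.7 CPM in shNC 1 to 4 and 81.4, 74.0, 71.9 and 62.7 CPM in shTbl1xr1 1 to 4. All 4 shTbl1xr1 libraries lay within the shNC range. The means were 69.3 ± 13.8 and 72.5 ± 7.69 CPM, with a log2 fold change of 0.06 (standard error 0.18, edgeR adjusted p = 0.892), which turned to -0.26 under scaling by library size alone. The difference from the shNC mean was 0.18 in the shallow pair and -0.02 in the deeper pair. Its relative Cbr3, which starts 72709 bases downstream, was at 1.27 TPM in shNC, against 90.1 TPM for Cbr1.

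How the libraries were scaled changed the size of these differences. The median log2 fold change of all genes tested was 0.01 with TMM, -0.27 with library size alone and -0.34 in deposited TPM. Fmo5 kept a positive fold change throughout, at 0.68 with TMM, 0.45 with library size alone and 0.10 in TPM, which are 0.72 and 0.43 above the median gene on the last 2 scales. Por had 0.61, 0.32 and 0.05, or 0.59 and 0.39 above the median gene on those scales. Ephx1 had 0.63, 0.25 and 0.06, or 0.52 and 0.40 above the median gene. Ephx2 had -0.32, -0.72 and -0.86, or -0.45 and -0.52 relative to the median gene. No scale by itself gives the amount of transcript per cell. None of the 8 passed with library size alone (0.0288% of all genes), with no low count filter (0.0534%), in deposited TPM (0.00719%), with a replicate block (0.036%) or with 1 surrogate variable (0.302%). None passed with 1 library left out, where 0.0% of all genes did without shNC 1, 2 or 4, 0.0142% without shNC 3, and 0.0141%, 0.0211%, 0.0213% and 0.241% without shTbl1xr1 1, 2, 3 and 4.

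The scales differed most in the shallow pair. Fmo5 in deposited TPM was 342, 465, 468 and 436 in shNC and 268, 227, 1018 and 685 in shTbl1xr1. In TPM the shallow pair therefore lay below every shNC library and the deeper pair above, whereas in TMM-normalised CPM all 4 were above. Por had 115, 140, 175 and 197 TPM in shNC and 101, 94.3, 224 and 299.9 TPM in shTbl1xr1, with the same pattern. That Fmo5 and Por did not overlap between groups holds on the TMM scale and not on the TPM scale.

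**Figure D2:**
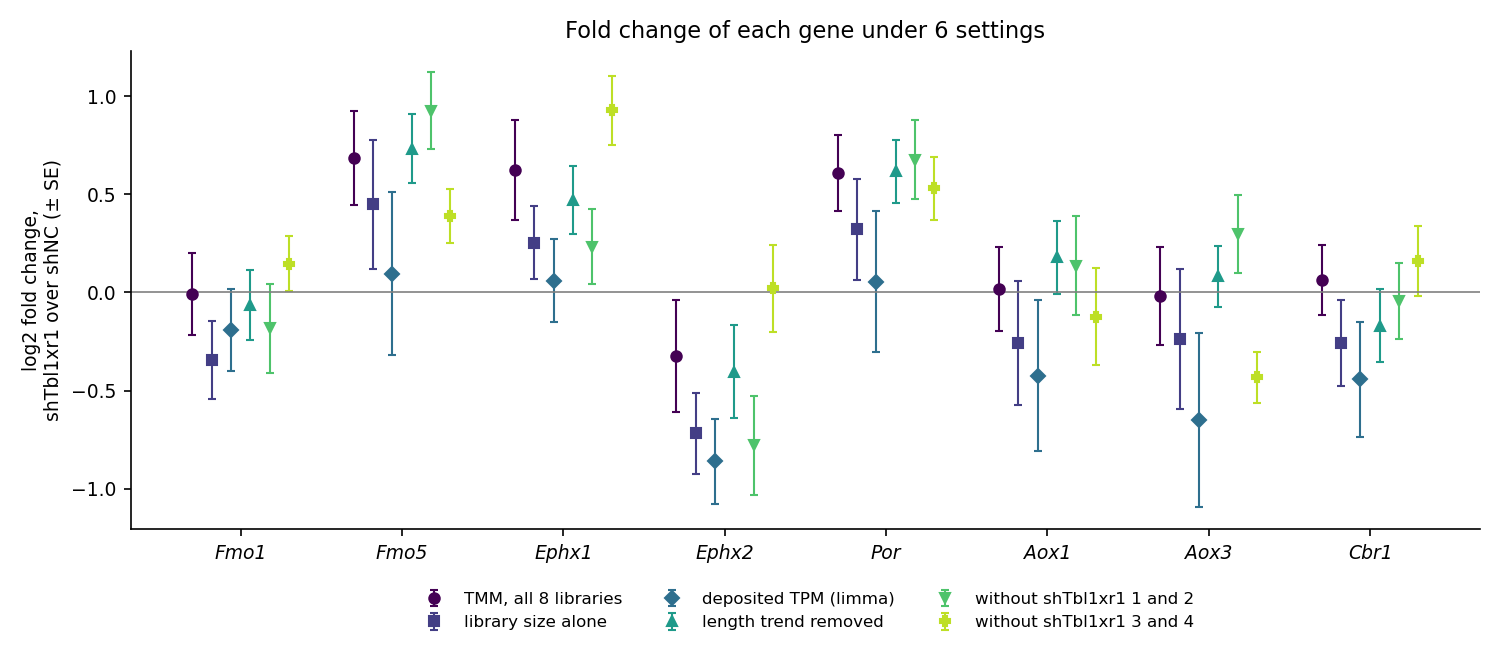
Log2 fold change of shTbl1xr1 over shNC (vertical axis; bars are ± 1 standard error of the fit) for each of the 8 genes under 6 settings, shown by marker. Fmo5, Por and Ephx1 stay above 0 in all 6, from 0.05 for Por in deposited TPM to 0.93 for Ephx1 with the shallow pair alone, while Ephx2 is at 0.02 with the shallow pair alone and below 0 in the rest.

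With the shallow pair left out, none of the 8 genes passed, beside 0.0478% of all genes. At an unadjusted p under 0.05 by edgeR there were 3 of the 8, beside 985 higher and 677 lower of 14645 genes. The log2 fold change was then 0.93 (SE 0.20, adjusted p = 0.200) for Fmo5, 0.68 (SE 0.20, adjusted p = 0.300) for Por, -0.78 (SE 0.25, adjusted p = 0.337) for Ephx2, 0.23 for Ephx1 and 0.30 for Aox3, by edgeR's quasi-likelihood test. With the shallow pair alone against shNC, 4 of 8 passed, where 42.6% of all genes did. Ephx1 (0.93), Por (0.53) and Fmo5 (0.39) were then higher, beside 21.5% of all genes, and Aox3 (-0.43) was lower, beside 21.1%. A share of this size beside such a background says little about these 8 genes.

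The difference between the shallow and the deeper shTbl1xr1 pair was fitted directly, in a comparison added after the data had been seen. It passed for 3 of the 8 genes, beside 37.1% of all genes. Ephx1 and Ephx2 were higher in the shallow pair than in the deeper pair, by 0.70 (SE 0.22, adjusted p = 0.0363) and 0.80 (SE 0.26, adjusted p = 0.0393) on the log2 scale, and Aox3 differed by -0.73 (SE 0.22, adjusted p = 0.0279), by edgeR. Fmo5 differed by -0.54 (SE 0.22, adjusted p = 0.0768) and Por by -0.15 (SE 0.22, adjusted p = 0.625). Tbl1xr1 itself was lower in the shallow pair (-2.497, SE 0.32, adjusted p = 0.001 by edgeR), so depth, mitochondrial share and the extent of knockdown cannot be told apart in these 4 libraries.

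Over all genes, the difference of the shallow pair from shNC varied with transcript length. When the genes tested were ranked by length into 4 classes of 3477 genes, the median log2 difference of the shallow pair from shNC was 0.64 in the shortest class, then 0.11, -0.24 and -0.55 in the longest. In the deeper pair it was -0.12, -0.04, 0.04 and 0.10. Fmo5 and Por, of the next-to-longest class, were at 0.40 and 0.55 in the shallow pair, above that class's median. Ephx1, of the next-to-shortest class, was at 0.94, and Ephx2 and Fmo1 of the same class at 0.06 and 0.16. Aox3 and Aox1, of the longest class, were at -0.42 and -0.07, above their class's median, and Cbr1, of the shortest class, was at 0.18, below its own.

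With the trend against length taken out of each library, in an alternative added after seeing the data, Fmo5 had a log2 fold change of 0.73 (standard error 0.18, adjusted p = 0.147) and Por 0.62 (SE 0.16, adjusted p = 0.161) by edgeR. Ephx1 had 0.47 (SE 0.17, adjusted p = 0.270) and Ephx2 -0.40 (SE 0.24, adjusted p = 0.452). None of the 8 passed there either, beside 0.194% of all genes. The signs of Cbr1 (-0.17) and Aox3 (0.08) turned.

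**Figure D3:**
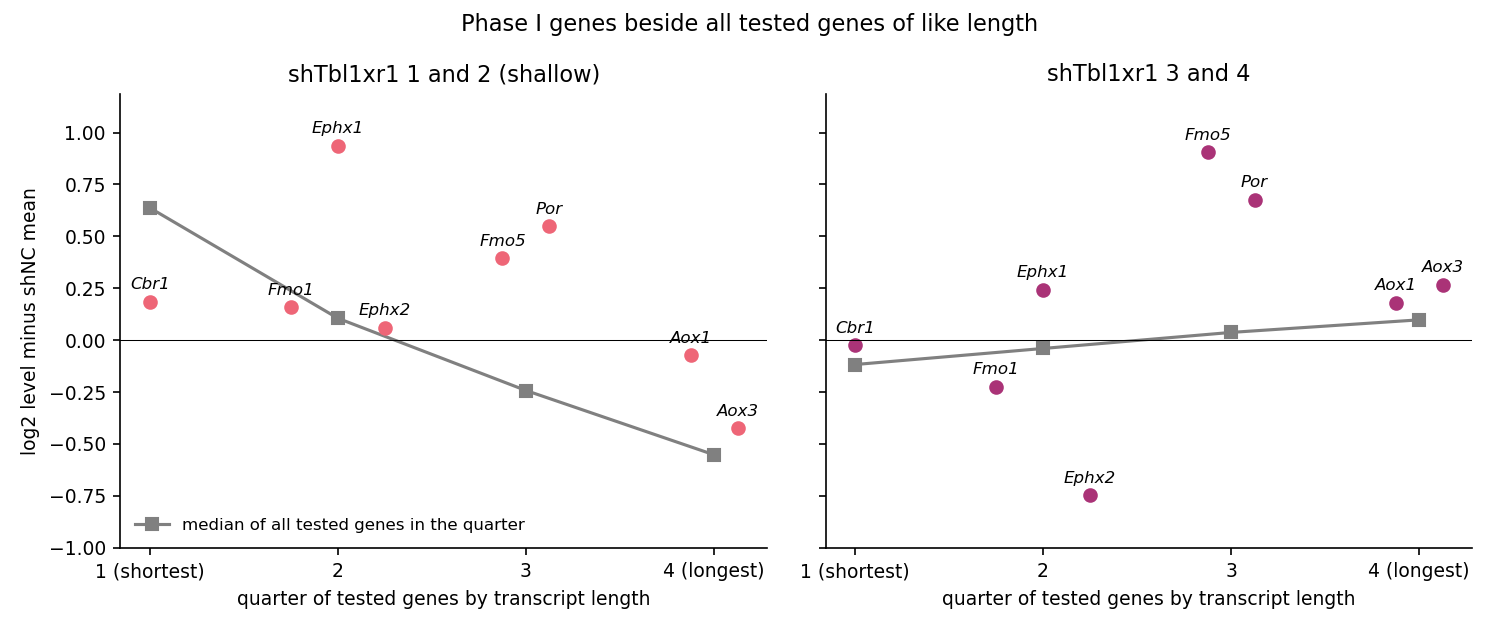
Log2 difference from the shNC mean (vertical axis) against length class of the transcript (horizontal axis, 4 classes of 3477 tested genes), for the shallow shTbl1xr1 pair on the left and shTbl1xr1 3 and 4 on the right; grey squares are the median of all tested genes in a class and points are the 8 phase I genes. The grey line falls from 0.64 to -0.55 on the left and stays between -0.12 and 0.10 on the right, and Fmo5 and Por lie above it on both sides.

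The deposited tables also give, for each gene and library, a length averaged over its transcripts by their estimated abundance, which moves only with the mix of isoforms. For Fmo1 it was 2041, 2338, 2337 and 2347 bases in shNC 1 to 4 and 1521, 1370, 2292 and 2288 bases in shTbl1xr1 1 to 4. The shallow pair was thus far shorter than the other 6, of which 5 lie near the 2388 bases of the full coding transcript of 9 exons. The other coding transcripts of Fmo1 have 750 to 1506 bases, so in the shallow pair the authors' estimate gave more weight to shorter annotated isoforms. Expected counts of Fmo1 were fractional in the other 6 libraries and whole, to the last digit deposited, in the shallow pair, whereas those of the other 7 genes were whole in all 8 libraries.

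Aox3 was the 1 gene of 8 whose weighted length did not overlap between groups, beside 2.52% of the 12050 tested genes with several transcripts. Its values were 4132, 4161, 4190 and 4269 bases in shNC and 4456, 4487.5, 4293 and 4280 bases in shTbl1xr1. The margin between shNC 4 and shTbl1xr1 4 was narrow, and the shallow pair was highest. The full coding transcript of Aox3 has 4606 bases and 35 exons, and the other annotated ones have 322 to 1926 bases.

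Por had 2563, 2438, 2412 and 2464 bases in shNC and 2621, 2622, 2425 and 2450 bases in shTbl1xr1. Here too the shallow pair was longest, close to the 2636 and 2606 bases of its 2 longest coding transcripts. Both shallow libraries lay outside the range of the other 6 for 6 of the 8 genes, beside 44.6% of genes with several transcripts. For Ephx1, Ephx2 and Aox1 the distance was small, since the spread of all 8 libraries was 1.72%, 0.69% and 2.59% of their mean. Fmo5 and Cbr1 did not show the shift, with spreads of 9.79% and 1.22%.

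**Figure D4:**
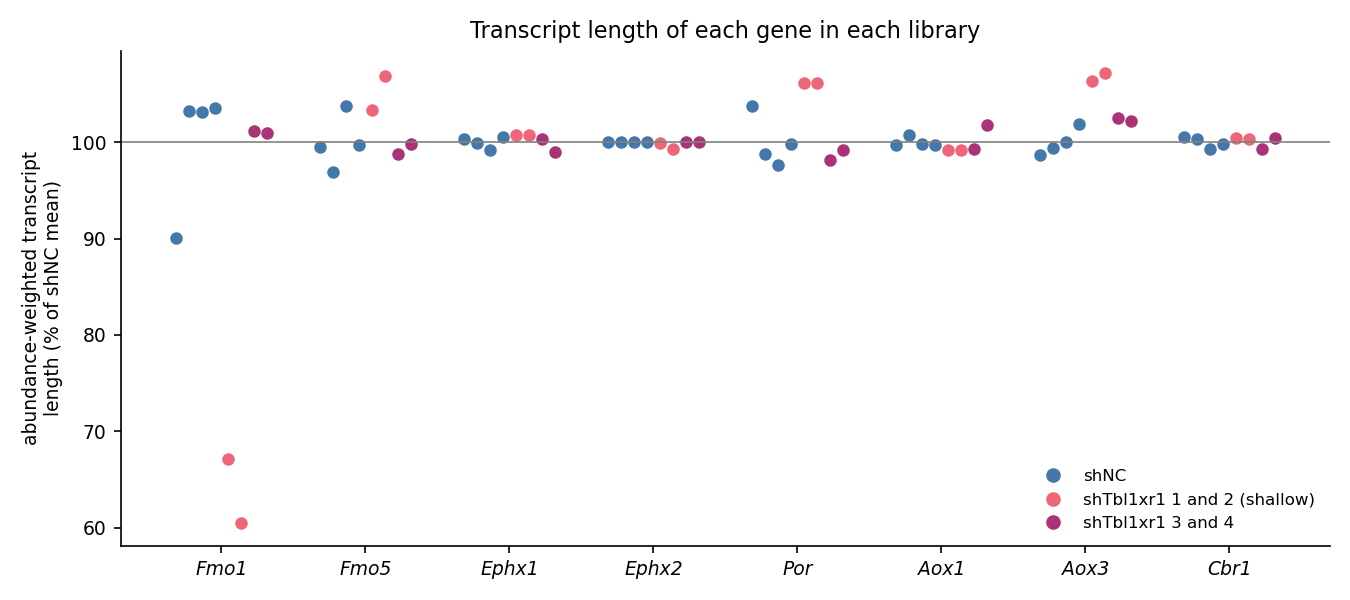
Abundance-weighted transcript length of each gene in each library, as a percent of its shNC mean (vertical axis), with 1 point per library coloured by group and depth. Fmo1 in the shallow pair lies far below the other points, Aox3 and Por in the shallow pair lie above them, and the points of Ephx1, Ephx2 and Cbr1 are nearly level.

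Profiles over the 8 libraries were compared by the root mean square difference of log2 levels, each relative to its own shNC mean, as a description without a test. Among the 8 genes, Aox1 and Cbr1 (0.27) and Fmo5 and Por (0.32) were the closest pairs, and Fmo5 and Ephx2 (0.90) the farthest apart. The closest of 9213 candidate genes were Fam124a for Fmo5 (0.109), Nr2c1, an orphan nuclear receptor gene, for Por (0.134) and Rab11b, a small GTPase of recycling endosomes, for Ephx1 (0.103). They were Hsd3b7, an enzyme of bile acid synthesis, for Ephx2 (0.181), and C1rl, a complement-like protease, for Fmo1 (0.0746). They were Gckr, the regulator of glucokinase, for Aox1 (0.130), Abcc6, a hepatic transporter, for Aox3 (0.0523) and Ccdc71 for Cbr1 (0.112). The median candidate differed from these genes by 0.402 to 0.618, and Ephx2 had the least close neighbour. All profiles share the same 8 libraries and their depths, so likeness here includes whatever the libraries share.

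Other genes of the same reactions were read from lists chosen with earlier results of these data known. For the counts below, the shares over all genes were 0.0503% by edgeR, 11.6% at an unadjusted p under 0.05 and 2.12% by DESeq2. The median difference from shNC over all genes was -0.09 in the shallow pair and -0.0015 in the deeper pair. None of the 25 other carbonyl and aldo-keto reductases passed by edgeR, 5 had unadjusted p under 0.05, all higher, and DESeq2 called 1. Of the 25, 20 had positive fold changes, and the median was 0.35 beside 0.01 over all genes. The median difference from shNC was 0.53 in the shallow pair (20 of 25 positive) and 0.10 in the deeper pair (15 of 25). Akr1d1, the bile acid 5β-reductase, averaged 88.1 ± 14.2 CPM in controls and 150 ± 22.9 CPM after knockdown (log2 fold change 0.77, standard error 0.18, edgeR adjusted p = 0.241) and was the only 1 of the list whose groups did not overlap, with 0.76 in the shallow and 0.78 in the deeper pair. Akr1c20 had a log2 fold change of -0.57 (standard error 0.27, edgeR adjusted p = 0.429), with -0.16 in the shallow and -1.13 in the deeper pair. In contrast to these, Cbr1 had 0.06.

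Among 12 tested genes that carry microsomal electrons or receive them from POR, none passed by edgeR, 2 had unadjusted p under 0.05 and DESeq2 called 2. Of these, 10 had positive fold changes, and the median was 0.26, with 0.55 in the shallow pair (11 of 12 positive) and -0.09 in the deeper pair (5 of 12). Cyb5r3, the cytochrome b5 reductase of the endoplasmic reticulum, had 286 ± 5.29 and 406 ± 57.8 CPM (log2 fold change 0.50, standard error 0.17, edgeR adjusted p = 0.372). Its relative Cyb5r1 had 9.87 ± 0.88 and 14.1 ± 1.80 CPM (0.52, SE 0.16, adjusted p = 0.334), though -0.04 in deposited TPM. Neither overlapped between groups, as Por did not. Cyb5r3 differed from shNC by 0.66 in the shallow and 0.33 in the deeper pair, and Cyb5r1 by 0.53 and 0.50. Hmox1, the heme oxygenase that accepts electrons from POR, had -0.44 (SE 0.40, adjusted p = 0.639), and 0.08 with the shallow pair left out.

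Of 9 tested molybdenum enzymes and genes of cofactor synthesis, which aldehyde oxidases need, none passed by edgeR or DESeq2 and none had an unadjusted p under 0.05. The median was 0.25, and 6 were positive, with 0.39 in the shallow pair and 0.03 in the deeper pair. Gphn, which inserts molybdenum into the cofactor, had 40.7 ± 2.73 and 50.9 ± 7.06 CPM (log2 fold change 0.32, standard error 0.15, edgeR adjusted p = 0.426), with -0.08 in deposited TPM, and Mocs2 had -0.20 (SE 0.19). Of 11 other phase I oxidoreductases and hydrolases, none passed by edgeR, 2 had unadjusted p under 0.05 and DESeq2 called 1, with a median of 0.21 (0.31 in the shallow pair and -0.06 in the deeper pair). Nqo2, a quinone reductase, had 60.4 ± 5.32 and 85.4 ± 9.52 CPM (0.50, SE 0.15, adjusted p = 0.327), and Ptgr2, a prostaglandin reductase, had -0.15 (SE 0.16).

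The xenobiotic receptors and their partners had a median of -0.06, and 7 of 12 tested had negative fold changes. The median was -0.31 in the shallow pair and 0.08 in the deeper pair. None passed by edgeR or DESeq2, and none had an unadjusted p under 0.05. Nr1i2, which encodes the pregnane X receptor, had 54.3 ± 7.95 and 40.7 ± 14.99 CPM (log2 fold change -0.41, standard error 0.26, edgeR adjusted p = 0.507), and Bach1 had 0.28 (SE 0.32). Nr1i2 differed from shNC by -0.94 in the shallow pair and by -0.02 in the deeper pair.

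Targets of the constitutive androstane receptor, a receptor also known to induce Por and Ephx1, included 2 of 10 that rose by edgeR, beside 0.0431% of all genes. They were Cyp2a5 (80.4 ± 12.6 to 528 ± 111 CPM, log2 fold change 2.72, adjusted p = 0.00476) and Cyp2c55 (15.7 ± 3.78 to 47.1 ± 6.71 CPM, 1.58, adjusted p = 0.0459), both of gene families with near-identical copies, so their counts are uncertain. Cyp2a5 differed from shNC by 2.88 in the shallow and 2.53 in the deeper pair, and Cyp2c55 by 1.75 and 1.45. The call of Cyp2c55 was lost in 11 of 20 alternatives, among them the shallow pair left out (adjusted p = 0.116, edgeR) and 7 of 8 fits with 1 library left out (all but shTbl1xr1 4, 0.0518 to 0.254). That of Cyp2a5 was lost in 3, without shNC 1, 2 or 4 (0.0589, 0.0523 and 0.0513). Of the 10, 8 were positive, and the median was 0.61 (0.70 in the shallow and 0.63 in the deeper pair). Gadd45b (-1.02) and Alas1 (-0.35) were negative. Cyp2b10, at most 1.36 CPM in any library, had 0.94 (SE 0.57, edgeR adjusted p = 0.499) with overlapping groups. It differed from shNC by -0.71 in the shallow and 1.27 in the deeper pair. At an unadjusted p under 0.05 by edgeR, 5 were higher and 1 was lower, and DESeq2 called 4. Of 13 tested NRF2 targets, 1 rose, Gstm3 (97.4 ± 16.3 to 1151 ± 549 CPM, 3.56, adjusted p = 0.0142), 11 were positive and the median was 0.46 (0.60 in the shallow and 0.13 in the deeper pair). Of these NRF2 targets, 4 were higher and none lower at an unadjusted p under 0.05 by edgeR, and DESeq2 called 4. The 4 higher by edgeR were all glutathione transferase genes, Gsta1, Gsta2, Gstm1 and Gstm3. Gstm3 differed from shNC by 3.36 in the shallow and 3.57 in the deeper pair. Its call was lost in 6 of 20 alternatives, which were library size alone (adjusted p = 0.0595, edgeR), deposited TPM (0.0571, limma) and the fits without shNC 1, 2, 3 or 4 (0.167, 0.110, 0.0813 and 0.107). Por, Ephx1 and Fmo5, the highest of the 8, had fold changes of 0.61, 0.63 and 0.68, far under the leading genes of both lists. In the shallow pair they were at 0.55, 0.94 and 0.40, beside medians of 0.70 for the first list and 0.60 for the second. In the deeper pair they were at 0.68, 0.24 and 0.91, beside 0.63 and 0.13. A common cause was not tested. The lists were made with earlier results of these data known, so their counts are no independent evidence of direction.

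Of 10 targets of PPARα, the fatty acid receptor known to induce Ephx2 in rodents, none passed by edgeR or DESeq2, 1 had an unadjusted p under 0.05, 6 were negative and the median was -0.26 (-0.22 in the shallow and -0.23 in the deeper pair). The fold change of Ephx2 was -0.32, with 0.06 in the shallow and -0.75 in the deeper pair. A part of the receptor in this was not tested. Fgf21 had 0.78 (SE 1.30), a value set by shTbl1xr1 3, without which it was -2.69. Of 5 tested targets of the aryl hydrocarbon receptor none passed by edgeR or DESeq2 and none had an unadjusted p under 0.05, with a median of 0.11 (0.13 in the shallow and -0.11 in the deeper pair). Cyp1a2 had 196 ± 73.3 and 522 ± 347 CPM (1.41, SE 0.64, adjusted p = 0.426), and Cyp1b1 had -0.58 (SE 0.55). Cyp1a2 was at 709 and 856 CPM in the shallow pair and at 62.1 and 463 CPM in shTbl1xr1 3 and 4, of which the former was below every shNC library. Its fold change was 0.41 with the shallow pair left out, 0.67 with 1 surrogate variable and 0.46 in deposited TPM.

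Genes of the pericentral zone, where P450s and their reductase are known to be concentrated, had a median of 0.41, with 9 of 12 positive, none called by edgeR, 3 with unadjusted p under 0.05 (1 higher, Rhbg, and 2 lower, Axin2 and Lgr5) and 1 called by DESeq2. The median was 0.75 in the shallow pair (10 of 12 positive) and -0.35 in the deeper pair (2 of 12). Rhbg, an ammonia transporter, had 8.33 ± 2.58 and 21.9 ± 10.73 CPM (log2 fold change 1.38, standard error 0.39, edgeR adjusted p = 0.320), and Axin2, a Wnt target, had 7.26 ± 0.84 and 4.63 ± 1.08 CPM (-0.64, SE 0.21, adjusted p = 0.354), with every shTbl1xr1 library below every shNC library. Rhbg was at 31.4 and 30.2 CPM in the shallow pair and at 9.40 and 16.5 CPM in the deeper pair, with a fold change of 0.64 when the shallow pair was left out. Lgr5, an R-spondin receptor gene named after its value was seen, had -0.67 (SE 0.25). The periportal list had a median of 0.21 (0.22 in the shallow and 0.36 in the deeper pair), with 9 of 12 positive, none called by edgeR, 1 with unadjusted p under 0.05 and 1 called by DESeq2. Ass1, of the urea cycle, had 2522 ± 267 and 3682 ± 467 CPM (0.55, SE 0.22, adjusted p = 0.412), and Pck1, of gluconeogenesis, had -0.15 (SE 0.37). The positive pericentral median thus came from the shallow pair, and a difference between the zones was not tested.

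**Figure D5:**
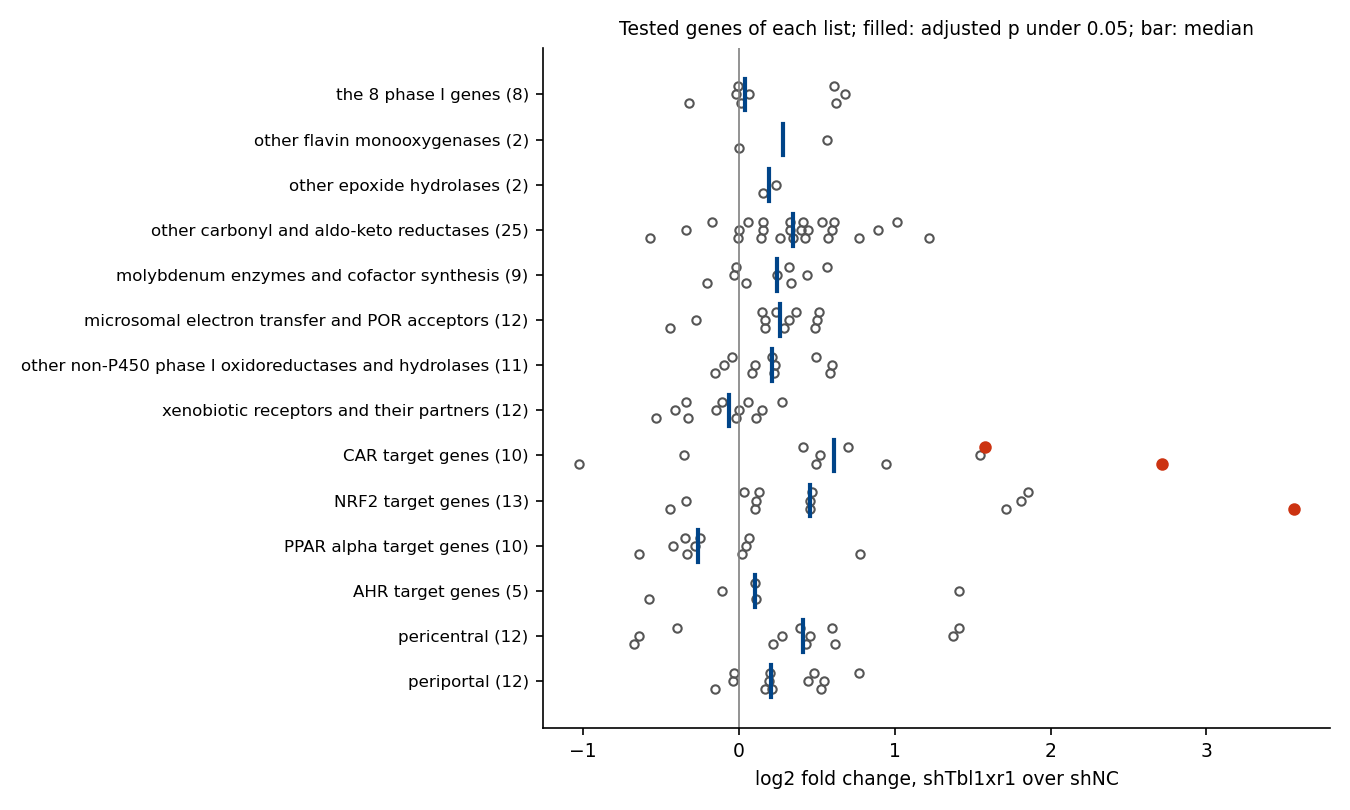
Log2 fold change of shTbl1xr1 over shNC (horizontal axis) for every tested gene of each list, with 1 point per gene, filled points for adjusted p under 0.05 and a bar at the list's median; the number tested follows each name. The 3 filled points are Cyp2c55, Cyp2a5 and Gstm3, and the 8 phase I genes lie between -0.32 and 0.68.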

How the data were processed

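RNA-seq of 8 liver libraries was read from 1 deposited table per library. Per the file headers, each holds the authors' expected count per gene with gene length, TPM and FPKM. STAR, RSEM and DESeq2 1.30.1, with build mm10, are listed in the submitters' processing notes. For options, strand setting and annotation release, nothing is stated there (not given in the sources used here). Gene symbols and positions were taken from GENCODE mouse release 21, after removal of the version suffix (55141 of 55401 identifiers matched).

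Expected counts were rounded, filtered by filterByExpr (13908 genes kept) and given TMM factors (edgeR 4.0.16, R 4.3.3). The groups entered edgeR's robust quasi-likelihood test without covariates, with Benjamini-Hochberg adjustment over all genes and a threshold of 0.05. Printed CPM values include the TMM factors, with a prior count of 2 for logarithms of single libraries. Levels between genes were compared by deposited TPM. Total counts of 10728583 to 36720879 gave each of the 8 genes at least 384 counts in every library.

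Alternatives used DESeq2 1.42.0, limma 3.58.1 (voom, and log2 of the authors' deposited TPM plus 1) and sva 3.50.0, 18 planned and 2 added after seeing the data. In simulated counts with 200 of 13908 genes changed, edgeR recovered 20% of 2-fold and 84% of 4-fold changes. The simulation kept the depth of each library but held no length trend and no shift shared by the shallow pair. The genes and lists were chosen with earlier results of these data known. Named genes are the 8, Tbl1xr1, each list's genes past the threshold or otherwise the smallest p per direction, and the closest profile to each of the 8 among genes with a mean of at least 5 CPM. Cyb5r3, Lgr5, Ephx3 and Ephx4, the medians by pair and the within-library ratios were chosen after their values were seen. The same holds for Cyp2b10, Gadd45b, Alas1, Gsta1, Gsta2 and Gstm1. Of the listed genes, 2 are not reported here.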

Additional observations from a re-analysis of the deposited data

Results flagged for a closer look

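In 6 of 36 sets of 4 libraries (level and weighted length of the 8 genes and Tbl1xr1 in each group), 1 library stood apart by more than Dixon's 95% limit for 4 values. Chance gives about 1 in 20 for independent, normally distributed values, which weighted lengths need not be. Whether the number flagged exceeds chance was not tested. For level, Fmo1 in shTbl1xr1 3 was at 79.9 CPM, below the other 3 of its group (ratio 0.928 on the log2 scale). The other 5 concern weighted transcript length. Fmo1 in shNC 1 had 2041 bases, the shortest of shNC (0.966), and Ephx2 in shNC 1 had 2034 bases (2033.66, ratio 0.902), less than 1 base under the rest. Aox1 had 4493 bases in shNC 2 (0.938) and 4539 bases in shTbl1xr1 4 (0.945), each the longest of its group. Cbr1 in shTbl1xr1 3 had 1225 bases (1224.52, ratio 0.898), the shortest of its group. The cause was not tested for any of them.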

How the results depend on the processing

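Of the 8 genes' fold changes under the alternatives, 124 values kept their direction and side of the threshold, 6 kept their direction and passed, and 30 changed sign, all in the 4 genes with values near 0 except 1 of Ephx2. The 6 were Fmo5 and Por by DESeq2, and Ephx1, Por, Fmo5 and Aox3 with the shallow pair only. So DESeq2 called 2 of the 8, the shallow pair only 4, and every other alternative 0. Genes called over all genes, 7 at first, came to 4 with library size alone (3 higher, 1 lower, against 6 and 1), 13 without a filter on low counts, 295 with DESeq2, 32 with limma-voom, 42 with 1 surrogate variable, 6094 with the shallow pair only, 1 with deposited TPM and 27 with the length trend removed. With 1 library left out there were 0 to 34, with 0 without shNC 1, 2 or 4, 2 without shNC 3 or shTbl1xr1 1, 3 without shTbl1xr1 2 or 3, and 34 without shTbl1xr1 4. Tbl1xr1 (-2.07) passed with DESeq2 (-2.13), 1 surrogate variable (-1.67) and the shallow pair only (-3.88).

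Sign changes of single genes follow. With the shallow pair only, values were 0.021 for Ephx2, 0.15 for Fmo1, -0.12 for Aox1, -0.37 for Bach1, -2.04 for Fgf21 and 0.022 for Mocs2. With deposited TPM they were -0.42 for Aox1, -0.44 for Cbr1, -0.27 for Bach1, -0.036 for Cyb5r1, -0.26 for Fgf21, -0.16 for Fmo4, -0.085 for Gphn and -0.16 for Lta4h. With library size alone they were -0.26 for Aox1, -0.26 for Cbr1 and -0.075 for Lta4h, and with upper quartile scaling -0.055 for Aox1 and -0.015 for Cbr1. With the shallow pair left out they were 0.30 for Aox3, -0.045 for Cbr1, 0.52 for Fmo2, 0.078 for Hmox1 and 0.32 for Pck1. With 1 surrogate variable they were 0.21 for Aox3, -0.0028 for Cbr1, 0.41 for Fmo2 and 0.23 for Pck1. With the length trend removed they were 0.083 for Aox3, -0.17 for Cbr1 and 0.040 for Fmo2. DESeq2's size factors in edgeR gave 0.0063 for Fmo1 and 0.0045 for Fmo2, DESeq2 gave 0.0058 and limma-voom 0.034 for Fmo1, and no filter gave -0.0030 for Aox1. With 1 library left out the ranges were -0.075 to 0.15 for Fmo1, -0.075 to 0.26 for Aox1, -0.30 to 0.10 for Aox3, -0.029 to 0.17 for Cbr1, -0.20 to 0.44 for Bach1, -2.69 to 2.05 for Fgf21, -0.28 to 0.27 for Fmo2 and -0.40 to 0.055 for Pck1. For Fmo5, Por and Ephx1 they were 0.47 to 0.77, 0.50 to 0.72 and 0.42 to 0.77, and for Ephx2 -0.49 to -0.14. Apart from the construction of each alternative, the cause was not tested.

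The labels give both groups replicate numbers 1 to 4. Same-numbered libraries correlated in their deviations from the group means at 0.38, -0.07, 0.30 and 0.12, so the numbers were not taken as pairs, and not every library correlated best with its own number. A replicate block called 5 genes and 0 of the 8, with Tbl1xr1 at -2.47 and Fgf21 at -0.22. Depth limits low genes most in the shallow pair, and 2-fold changes were recovered seldom in simulation, which left out the length trend of that pair.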
